A study of Homo sapiens with 6 samples.

Results

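The 8 human SMAD genes were followed in SUM-LM1 breast cancer cells after 6 h of activin B. Members were all probe sets of the expression array whose platform annotation names SMAD1 to SMAD7 or SMAD9 and no other gene, which gave 30 probe sets of 8 genes, out of 54613 probe sets and 19775 named genes in all. A probe set is a group of short probes that together read 1 transcript region. SUM-LM1 was derived from the human breast cancer line SUM159 and metastasizes to lung. The cells were seeded at 12500 cells per ml on ultra-low attachment plates, where cells cannot spread on the plastic, in HuMEC medium with BSA. The 3 activin B samples received recombinant human activin B at 50 ng/ml, and the 3 vehicle samples received BSA in PBS. All 6 samples are labelled biological replicates of the same line, so the comparison covers 1 line, 1 dose and 1 time. Labels do not say whether replicates came from separate cultures, and p values measure only the spread between these samples. Total RNA (50 ng per sample) was read on Affymetrix Human Genome U133 Plus 2.0 arrays.

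SMAD proteins carry signals of the TGF-beta family from receptors at the membrane to genes in the nucleus. The receptor-regulated members are phosphorylated by type I receptors: SMAD2 and SMAD3 classically by activin and TGF-beta receptors, SMAD1, SMAD5 and SMAD9 (also called SMAD8) by BMP receptors. SMAD4, the common member, binds the phosphorylated proteins and enters the nucleus with them. SMAD6 and SMAD7 are inhibitory members that bind receptors or compete for partners, and their genes are known to be switched on by the pathway itself. Arrays read transcripts, not phosphorylation, so the values below concern how much SMAD mRNA was present, not how active the proteins were.

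Activin B moved few SMAD transcripts, and those in both directions. In their brightest probe sets, SMAD9 rose 1.70-fold and SMAD7 rose 1.55-fold, whereas SMAD1 fell by 0.53 on the log2 scale. Of the 30 probe sets, 2 were higher and 2 lower at an adjusted p under 0.05 (limma, Benjamini-Hochberg adjustment over all probe sets), and 26 did not pass. Over the whole array, 0.0732% of probe sets were higher and 0.0476% lower by the same rule. In either direction it was 0.121%, against 13.3% of the SMAD probe sets. Read with the brightest probe set of each gene, 2 SMAD genes were higher and 1 lower, against 0.101% higher and 0.091% lower among all genes. The groups did not overlap in 6 of the 30 probe sets, against 9.79% of all probe sets, and in the brightest sets of 4 of the 8 genes, against 10.3% of all genes. The median log2 change was -0.02 over the SMAD probe sets and 0.00 over all probe sets. In cultured cells read in bulk, fewer cells with a transcript and less of it per cell cannot be told apart.

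**Figure D1:**
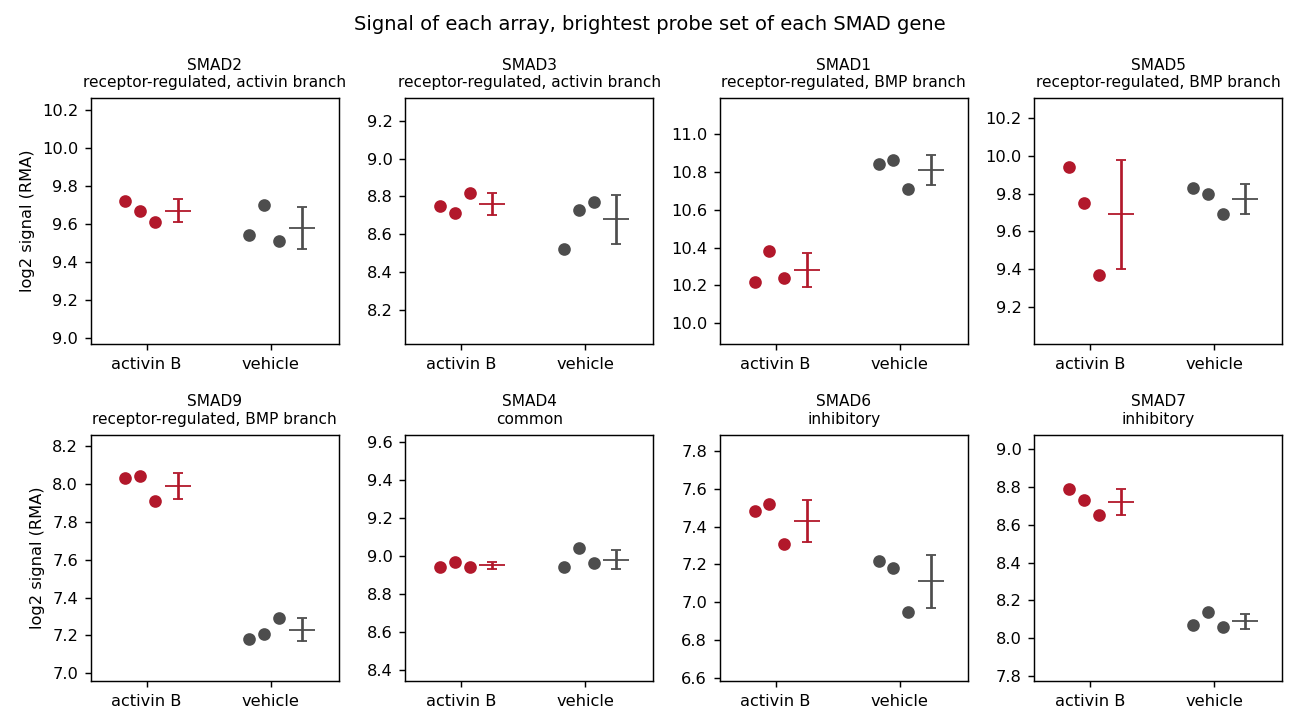
Log2 signal (RMA) of each array for the brightest probe set of each SMAD gene, activin B in red and vehicle in grey, with mean ± SD of the 3 arrays beside the points; every panel spans the same height on the log2 scale. SMAD9 (7.99 in activin B, 7.23 in vehicle), SMAD7 (8.72 and 8.09), SMAD6 (7.43 and 7.11) and SMAD1 (10.28 and 10.81) show no overlap between the groups, and the other 4 genes overlap.

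One array stood apart from the others. On the first principal component of all probe sets, activin B replicate 3 lay at 21.7 and the other 5 arrays between -10.6 and 5.70, so values without that array are given for the SMAD genes. Array medians were between 6.69 and 6.70, and correlations between arrays between 0.9935 and 0.9961. Of 7 markers of a breast cancer line, KRT8, KRT18, CD44, VIM and EGFR were bright (percentile of all probe sets between 88.7 and 99.9), while KRT19 and EPCAM lay at the percentiles 34.6 and 15.9. The endothelial marker CDH5 and the leukocyte marker PTPRC lay at the percentiles 2.3 and 14.8, and no member of either list passed the test. At or above the array median were 2 of 7 endothelial markers, with PECAM1 at the percentile 75.6, and 1 of 5 leukocyte markers. Mean signal of the 7 endothelial markers ranged from 6.56 to 6.67 in activin B and from 6.65 to 6.74 in vehicle, that of 5 leukocyte markers from 6.43 to 6.63 and from 6.45 to 6.53. Among the added bacterial controls, the 6 sets named thr read 0.29 to 0.54 (log2) higher in the activin B arrays, and the part of these in the results was not tested. Other added controls were not compared between the groups.

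SMAD2 and SMAD3, the receptor-regulated members of the activin branch, did not pass in any of their 10 probe sets. SMAD2 in its brightest probe set (203076_s_at) had log2 signals of 9.72, 9.67 and 9.61 in activin B, against 9.54, 9.70 and 9.51 in vehicle. Its groups overlapped, with a log2 change of 0.09 (95% confidence interval -0.06 to 0.23; adjusted p = 0.995). SMAD3 in its brightest probe set (218284_at) had 8.75, 8.71 and 8.82 in activin B, against 8.52, 8.73 and 8.77 in vehicle, a log2 change of 0.08 (-0.08 to 0.24; adjusted p = 0.995). These 2 genes are the transducers through which activin classically acts, and both had signals well above the array median of 6.69. The other SMAD2 sets gave log2 changes of -0.09 (203075_at), 0.05 (203077_s_at), -0.05 (226563_at), 0.10 (235598_at) and -0.07 (239271_at). The other SMAD3 sets gave -0.10 (205398_s_at), -0.04 (205397_x_at) and 0.03 (205396_at). No group pair was free of overlap in either gene, signs were split 5 against 5, and the widest confidence limits were -0.26 and 0.25 on the log2 scale, a change of 1.20-fold down and 1.19-fold up. A missed threshold does not show that the levels were equal, but larger changes lie outside the intervals of all 10 sets. Without activin B replicate 3 the log2 changes of the 10 sets lay between -0.18 (239271_at) and 0.16 (235598_at), and none passed.

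SMAD9 showed the largest change among the SMAD genes when each was read by its brightest probe set. SMAD9 is a receptor-regulated member of the BMP branch, known to be weaker as an activator than SMAD1 and SMAD5. Its brighter probe set (227719_at) had log2 signals of 8.03, 8.04 and 7.91 in activin B, against 7.18, 7.21 and 7.29 in vehicle. Every activin B array lay above every vehicle array by a wide margin compared with the spread within groups (7.99 ± 0.07 in activin B and 7.23 ± 0.06 in vehicle, SD, n = 3 each). The log2 change of 0.77 ± 0.07 (SE; adjusted p = 5.38e-05, limma) ranked 11 from the top of all 54613 probe sets. Without activin B replicate 3 it was 0.81 (adjusted p = 6.49e-05). The other SMAD9 probe set (206320_s_at) had 6.68, 6.75 and 6.66 in activin B, against 6.62, 6.67 and 6.51 in vehicle. It lay near the array median and its groups overlapped, with a log2 change of 0.10 (95% confidence interval -0.04 to 0.24; adjusted p = 0.995), so the rise of SMAD9 rested on 1 of 2 sets. The difference between the sets was not tested. With both sets averaged the log2 change was 0.43 ± 0.05 (SE, adjusted p = 0.00623, limma over genes). By that reading SMAD7, with 0.63, changed more than SMAD9.

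SMAD1, of the same branch, moved the other way. SMAD1 is a transducer of BMP signals and the gene that fell among the SMADs. Its brightest probe set (227798_at) had log2 signals of 10.22, 10.38 and 10.24 in activin B, against 10.84, 10.86 and 10.71 in vehicle. A second set (210993_s_at) had 9.78, 9.79 and 9.87 in activin B, against 10.37, 10.36 and 10.36 in vehicle. In both sets all activin B arrays lay below all vehicle arrays. The log2 changes were -0.53 ± 0.07 and -0.55 ± 0.06 (SE; adjusted p = 0.00344 and 0.000722, limma), that is 1.44-fold and 1.47-fold lower, and ranked 9 and 5 from the bottom of all probe sets. Without activin B replicate 3 they were -0.51 and -0.58 (adjusted p = 0.0122 and 0.00096). The first set lay closest to the threshold without vehicle replicate 2 (adjusted p = 0.0494). The third set (208015_at) was dim, with 6.43, 6.75 and 6.82 in activin B, against 6.70, 6.66 and 6.97 in vehicle, and its groups overlapped (log2 change -0.11, 95% confidence interval -0.32 to 0.11; adjusted p = 0.995). The mean of the 3 sets still passed (log2 change -0.40 ± 0.05, SE; adjusted p = 0.0244).

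SMAD5, the remaining member of the BMP branch, did not pass in any of 5 probe sets. The brightest (225223_at) had log2 signals of 9.94, 9.75 and 9.37 in activin B, against 9.83, 9.80 and 9.69 in vehicle. Activin B replicate 3 was the lowest of the 6 arrays there and widened the spread in that group (SD 0.29 in activin B and 0.08 in vehicle); without it the log2 change was 0.07 in place of -0.08. The other sets gave log2 changes of 0.03 (225219_at), -0.12 (235451_at), 0.07 (205188_s_at) and -0.02 (205187_at), with adjusted p between 0.989 and 0.999 over all 5. Without that array they lay between -0.12 (235451_at) and 0.08 (205188_s_at). In 205188_s_at the groups did not overlap, at 7.54, 7.55 and 7.5 in activin B, against 7.48, 7.46 and 7.45 in vehicle. Within the BMP branch, then, 1 probe set was higher, 2 were lower and 7 did not pass, with a median log2 change of -0.05. The 95% confidence intervals of the called sets (0.62 to 0.91 for SMAD9, -0.67 to -0.38 and -0.68 to -0.42 for SMAD1) did not reach those of any SMAD5 set, whose limits lay between -0.31 and 0.19; the differences themselves were not tested.

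**Figure D2:**
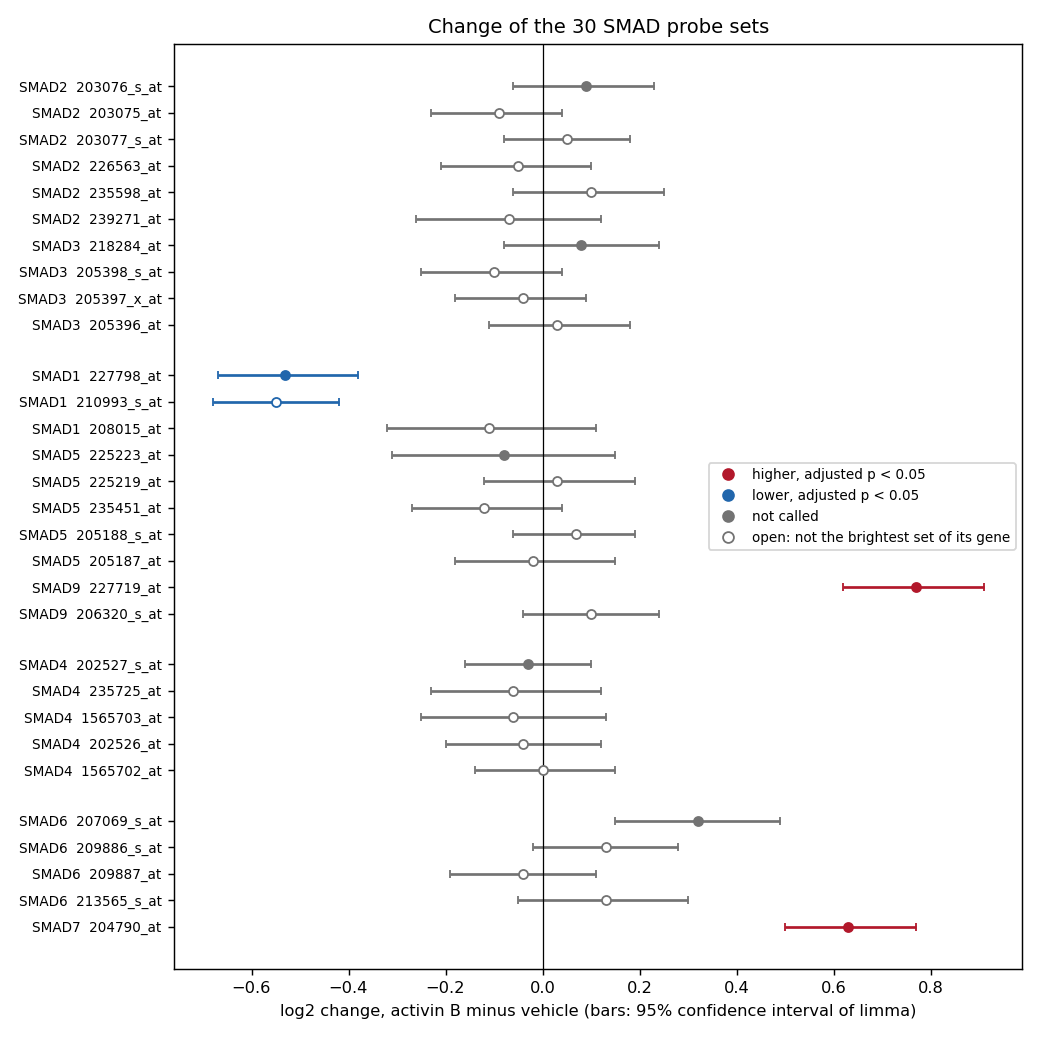
Log2 change (activin B minus vehicle) of each of the 30 SMAD probe sets on the horizontal axis, with 95% confidence intervals, grouped from top to bottom into receptor-regulated members of the activin branch, receptor-regulated members of the BMP branch, the common member and the inhibitory members; filled points are the brightest set of a gene. SMAD9 (0.77) and SMAD7 (0.63) lie to the right and 2 sets of SMAD1 (-0.53 and -0.55) to the left, while the other 26 lie between -0.12 and 0.32.

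SMAD4, the common partner of both branches, showed no change past the threshold. Its brightest probe set (202527_s_at) had log2 signals of 8.94, 8.97 and 8.94 in activin B, against 8.94, 9.04 and 8.96 in vehicle, with overlapping groups and a log2 change of -0.03 (95% confidence interval -0.16 to 0.10; adjusted p = 0.999). The other 4 sets gave -0.06 (235725_at), -0.06 (1565703_at), -0.04 (202526_at) and 0.00 (1565702_at). Of the 5 sets, 3 lay below the median of all probe sets. None had an adjusted p under 0.999. Without activin B replicate 3 the log2 changes lay between -0.15 (235725_at) and -0.02 (202527_s_at), and none passed.

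The inhibitory SMADs both read higher in activin B in their brightest probe sets, and SMAD7 passed. SMAD7 competes with receptor-regulated SMADs at the receptor and brings ubiquitin ligases to it. It had 1 probe set (204790_at), with log2 signals of 8.79, 8.73 and 8.65 in activin B, against 8.07, 8.14 and 8.06 in vehicle. The groups were far apart relative to their spread (8.72 ± 0.07 in activin B and 8.09 ± 0.04 in vehicle, SD, n = 3 each). The log2 change of 0.63 ± 0.06 (SE; adjusted p = 0.000313, limma) ranked 18 from the top of all probe sets, and was 0.67 (adjusted p = 0.000349) without activin B replicate 3. SMAD6, which inhibits mainly BMP signals, had in its brightest set (207069_s_at) 7.48, 7.52 and 7.31 in activin B, against 7.22, 7.18 and 6.95 in vehicle. All activin B arrays lay above all vehicle arrays, and the log2 change of 0.32 ± 0.08 (SE; 95% confidence interval 0.15 to 0.49) ranked 97 from the top, but it did not pass (adjusted p = 0.336; unadjusted p = 0.00128, limma). Without activin B replicate 3 it was 0.38 (adjusted p = 0.167).

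The other 3 SMAD6 sets were dim, with group means between 6.38 and 6.65. SMAD6 in 209886_s_at had 6.68, 6.65 and 6.62 in activin B, against 6.54, 6.62 and 6.40 in vehicle, a log2 change of 0.13 (adjusted p = 0.959). The remaining sets gave 0.13 (213565_s_at) and -0.04 (209887_at), both with overlapping groups. Averaged over its 4 sets, SMAD6 differed by 0.13 ± 0.06 on the log2 scale (SE; adjusted p = 0.788). SMAD7 and SMAD6 both stand in the activin B signature that the study chose on these same arrays, so their rank here is not independent evidence. Over the 5 inhibitory sets 1 was higher, none was lower and the median log2 change was 0.13, against 0.00 over the 10 sets of SMAD2 and SMAD3, -0.05 over those of the BMP branch and -0.04 over the 5 of SMAD4. Of the 5 inhibitory sets SMAD6 had 4 and SMAD7 had 1, so their median mostly reflected SMAD6. At an unadjusted p under 0.05 (limma) stood 5 of the 30 sets, the 4 called ones and 207069_s_at of SMAD6, against 5.28% of all probe sets.

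**Figure D3:**
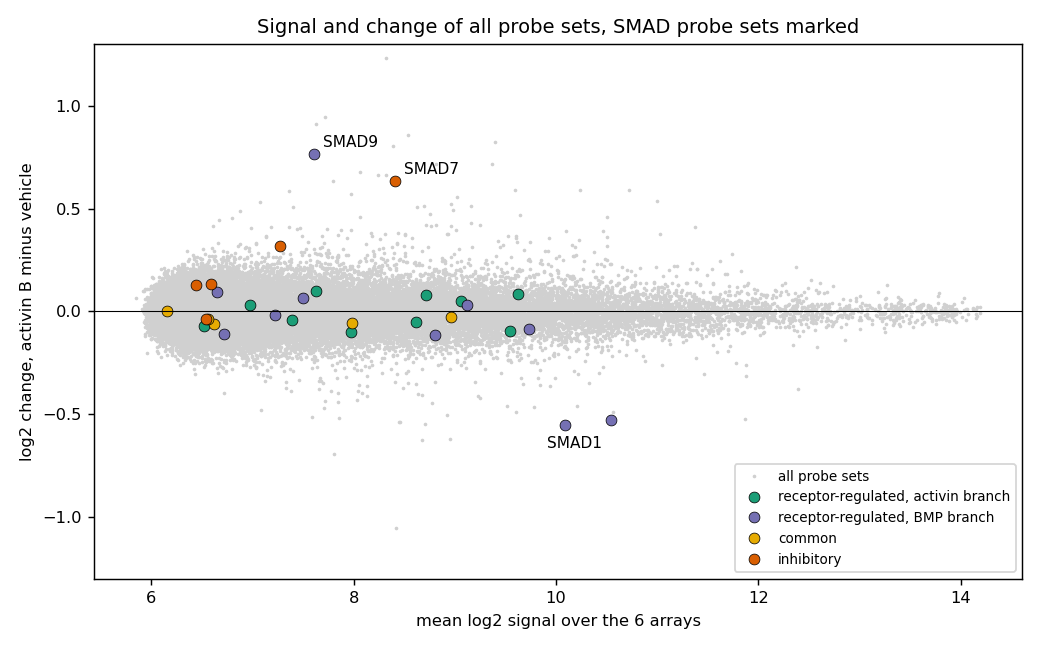
Log2 change (activin B minus vehicle, vertical) against mean log2 signal over the 6 arrays (horizontal) for all 54613 probe sets in grey, with the SMAD probe sets colored by class; 4 probe sets beyond ±1.3 are not drawn. The called sets of SMAD9 and SMAD7 lie above the band of most probe sets and the 2 of SMAD1 (1 labelled) below it, and the sets of SMAD2, SMAD3 and SMAD4 lie within it.

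Because the inhibitory genes are known targets of SMAD proteins, the stretches before their start sites are shown. SMAD3 and SMAD4 are known to bind GTCT and its reverse complement AGAC, and SMAD1 and SMAD5 to bind GC-rich letters such as GGCGCC. The 250 bases before each start site were searched on both strands for GTCTAGAC, which is its own reverse complement, and for the shorter CAGAC, which GTCTAGAC does not contain. They were also searched for GGCGCC and for the spaced motif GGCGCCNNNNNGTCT, which contains it. The sequences are RefSeq promoter sequences of the assembly GRCh38.p14 (the SMAD6 stretch chr15:66701986-66702235, plus strand; the SMAD7 stretch chr18:48950966-48951215, minus strand), each ending at the base before the start site, with capitals marking matches.
SMAD6: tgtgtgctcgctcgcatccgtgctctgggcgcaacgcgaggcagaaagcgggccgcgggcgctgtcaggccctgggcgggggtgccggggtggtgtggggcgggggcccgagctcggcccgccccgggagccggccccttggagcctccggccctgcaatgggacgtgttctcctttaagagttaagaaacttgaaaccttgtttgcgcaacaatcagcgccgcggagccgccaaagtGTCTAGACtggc
SMAD7: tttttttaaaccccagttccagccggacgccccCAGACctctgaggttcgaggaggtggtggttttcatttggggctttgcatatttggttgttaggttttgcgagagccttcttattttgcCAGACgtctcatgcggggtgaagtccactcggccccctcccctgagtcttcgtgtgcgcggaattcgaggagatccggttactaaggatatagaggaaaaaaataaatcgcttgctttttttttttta
The SMAD6 stretch held 1 GTCTAGAC, whose first base is at -12 from the start site, and none of the other motifs. In the SMAD7 stretch CAGAC stood at -217 and -128, with no GTCTAGAC or GGCGCC. Of 35116 promoter stretches of the same length in the reference, 0.182% held GTCTAGAC, 38.0% held CAGAC, 16.4% held GGCGCC and 0.0769% held the spaced motif.

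All 8 SMAD genes had such stretches, 19 in all because several have more than 1 start site. GTCTAGAC was found in 1 of the 19, that of SMAD6, CAGAC in 5, GGCGCC in 6 and the spaced motif in 0. The single stretches of SMAD9, which rose in 1 of its 2 probe sets, and of SMAD5, which did not pass, held none of the 4 motifs. Stretches of SMAD1, the gene that fell, held GGCGCC at 2 of its 5 start sites, and 1 of these also held CAGAC. Genes that did not pass held these motifs too: GGCGCC was found in stretches of SMAD2, SMAD3 and SMAD4, and CAGAC in stretches of SMAD3. Whether any motif bears on the changes was not tested. A second SMAD7 stretch held CAGAC once and the third held no motif. A match is only a run of letters, and a stretch with none says nothing of sites elsewhere in the gene.

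Proteins that anchor, dephosphorylate, degrade or assist SMADs were read beside them, each by the brightest probe set of its gene. Of 56 measured regulators and receptors, 1 was higher and none lower, against 0.101% higher and 0.091% lower among all genes, and the median log2 change was 0.02, against 0.00 over all genes. SKIL, a corepressor that binds SMAD proteins at DNA, was the one that rose. Its rise rested on its brightest probe set, the only SKIL set that passed. That set had log2 signals of 8.76, 8.53 and 8.43 in activin B, against 7.88, 7.89 and 7.97 in vehicle. The groups did not overlap, with a log2 change of 0.66 ± 0.08 (SE; adjusted p = 0.00142, limma). The other 5 measured corepressors did not pass, and the median log2 change of the 6 was 0.08.

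None of 9 anchors and transport proteins passed. The largest change among them was that of ZFYVE9, also called SARA, which presents SMAD2 and SMAD3 to receptors (log2 change 0.26; adjusted p = 0.729). It had 8.01, 7.78 and 8.11 in activin B, against 7.72, 7.56 and 7.83 in vehicle, with overlapping groups. None of 5 phosphatases passed, with PPM1A, a phosphatase of receptor-regulated SMADs, at -0.10, nor did any of 11 ubiquitin ligases and deubiquitinases, with ITCH at 0.10 and changes between -0.08 and 0.10.

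None of 14 coactivators and DNA-binding partners passed either. ZEB2, a SMAD-binding repressor, was the most changed of these. It had 7.70, 7.88 and 7.70 in activin B, against 8.04, 8.19 and 8.02 in vehicle. Its groups did not overlap, with a log2 change of -0.32 ± 0.07 (SE; adjusted p = 0.206). No receptor passed among 6 of type I, with changes between -0.18 and 0.19, and 5 of type II, with changes between -0.12 and 0.09. The most changed of type I was ACVRL1, a receptor known mainly from endothelium (0.19, adjusted p = 0.874, limma). Of type II it was AMHR2, the receptor of anti-Mullerian hormone (-0.12, adjusted p = 0.972, limma). USP15, NCOR1, RUNX1 and BMPR1A had no probe set of their own in the annotation and were not analysed here.

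**Figure D4:**
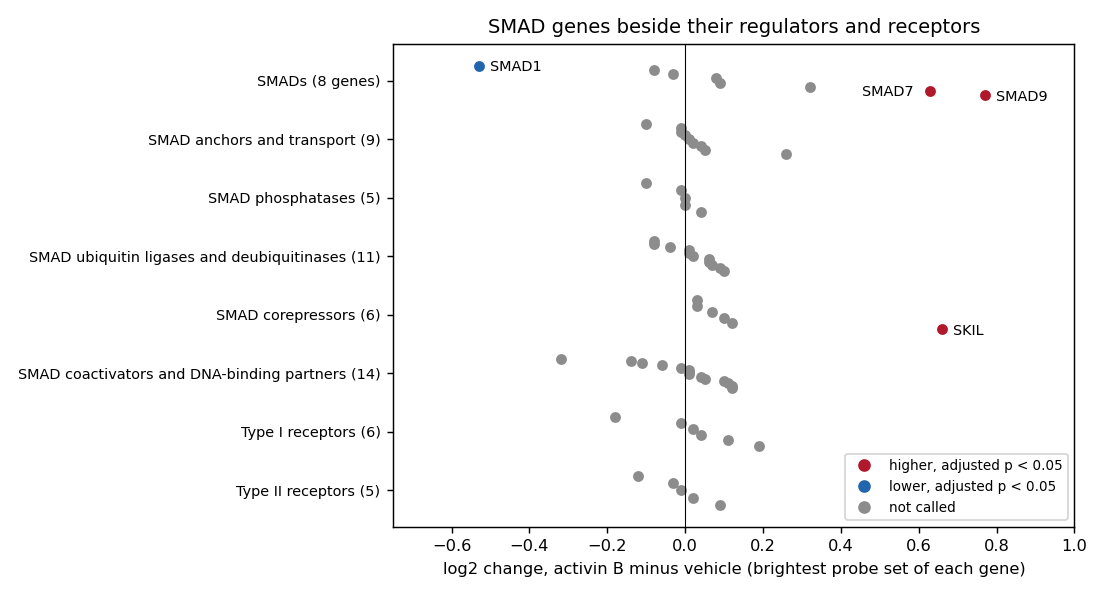
Log2 change (activin B minus vehicle) of the 8 SMAD genes and of 56 regulators and receptors, by the brightest probe set of each gene; points are genes, those past the test are red when higher and blue when lower, and numbers after the names count measured genes. SMAD9, SMAD7 and SKIL lie on the right and SMAD1 on the left of an otherwise narrow band.

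The genes whose pattern over the 6 arrays was most like that of the called SMAD genes were looked up among 12636 genes other than SMADs whose mean signal was at or above the median of all probe sets. For SMAD9 these were DLX1, a homeobox factor (r = 0.998), NRIP3 (r = 0.993) and ID2, an inhibitor of DNA binding (r = 0.992). For SMAD7 they were LYRM4 (r = 0.991), ID1 (r = 0.990) and ID2 (r = 0.989), the last 2 with log2 changes of 2.25 and 1.47. For SMAD1 they were MRPS11 (r = 0.996), CARD10 (r = 0.992) and GPSM2 (r = 0.991), all 3 lower in mean but not past the threshold, with log2 changes of -0.13, -0.20 and -0.25. The 6 points fall into 2 groups, and r takes no account of the size of a change. As the highest of 12636 values over only 6 arrays, an r this high can arise from the search alone. Shared regulation was not tested. NRIP3 and LYRM4 had log2 changes of 0.05 and 0.20, neither past the threshold.

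**Figure D5:**
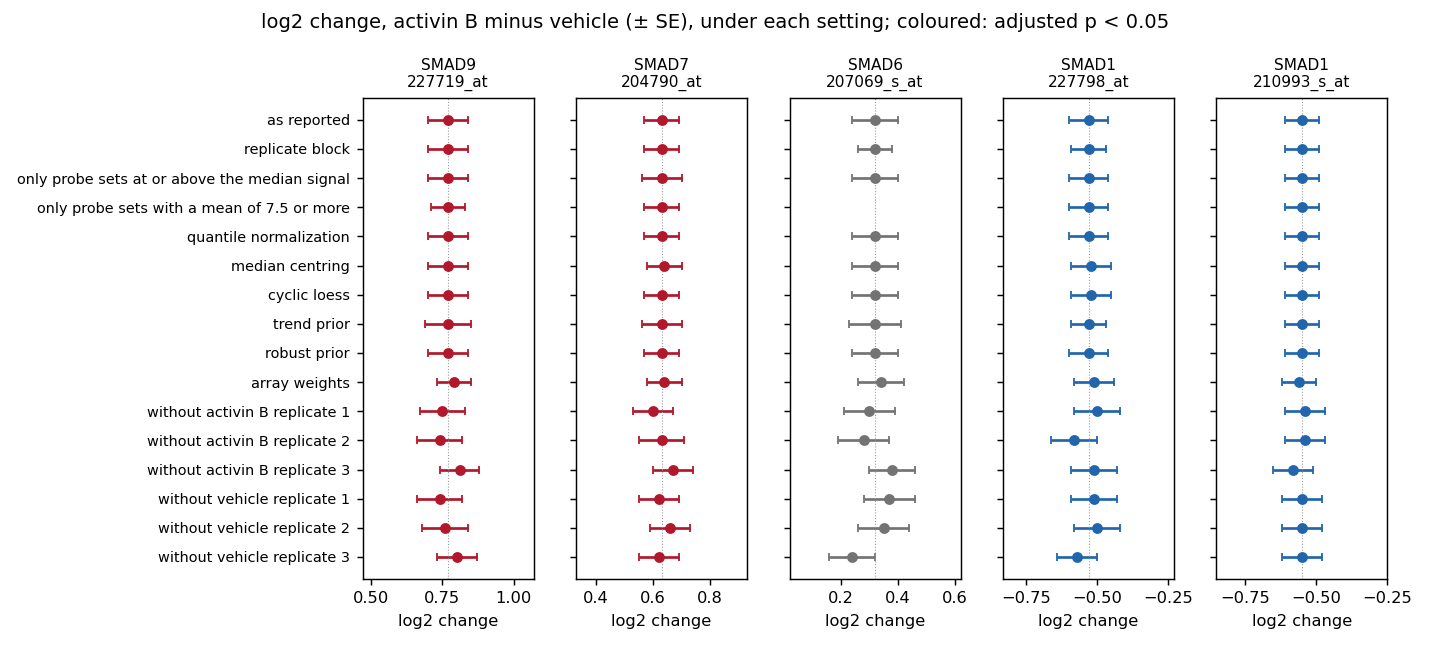
Log2 change (activin B minus vehicle, ± SE, horizontal) of the 4 called SMAD probe sets and of the brightest set of SMAD6 under each setting (vertical), colored at an adjusted p under 0.05; the horizontal axes span the same width but not the same values. The called sets stay colored in every row, with 0.74 to 0.81 for SMAD9 and 0.60 to 0.67 for SMAD7, and SMAD6 stays grey in every row that holds it.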

How the data were processed

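The authors normalized the scanner files of the 6 arrays by robust multiarray averaging (RMA) in Chipster. The deposited values are log2 signals per probe set, between 5.79 and 14.22. RMA equalizes the distributions of the arrays, which removes changes shared by most transcripts, and it compresses differences near background. Scanner files were not used here, so background correction was not varied.

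Groups and replicate numbers came from the sample titles. The 62 array controls were removed, and probe sets were named by the platform annotation, with identifiers checked against RefSeq (GRCh38.p14). Of 54613 probe sets, 41091 had 1 gene symbol, 1801 several and 11721 none; only the first kind was named. The brightest probe set is that with the highest mean over the 6 arrays. Groups were compared with limma 3.58.1 in R 4.3.3 (empirical Bayes, 4 residual and 10.8 prior degrees of freedom). P values were adjusted by Benjamini-Hochberg over all probe sets and called under 0.05. Standard errors had a median of 0.069 on the log2 scale; 3 arrays per group limit the precision. The steps were tested on simulated data, with 200 changed probe sets among 54613 and 5 runs. There, 4.4% of log2 changes of 0.25, 65.6% of 0.5 and 96.8% of 1 were called, so small changes would often be missed. These shares depend on how many sets change. That number was not varied, and 66 sets were called in the data.

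Members and gene lists were chosen with earlier results of these data known. Every SMAD probe set is named; of each other list, called members and the member with the largest change; of marker lists, ranges and a few members chosen after their values were seen. For likeness of pattern, the 3 genes with the highest r were named for each called SMAD gene. Alternatives tried were a replicate block, filters on dim signals (2), further normalizations (3), other priors (2), array weights, each array left out in turn, and the mean of all sets or the brightest gene-specific set to stand for a gene. Protein sequences were not used here. Figures were drawn with matplotlib 3.10.9.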

Additional observations from a re-analysis of the deposited data

How the results depend on the processing

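All 428 refits of the 30 SMAD probe sets kept the call or lack of one reported above; signs of probe sets near 0 could turn. The 2 higher and 2 lower SMAD probe sets, the 2 higher and 1 lower SMAD genes, and the single higher gene among regulators and receptors were found again in number under every alternative run for each. The mean of all probe sets of a gene and the brightest gene-specific set were run for the SMAD gene counts only. The adjusted p ranged up to 0.00135 for SMAD9 (227719_at), 0.00431 for SMAD7 (204790_at), 0.0103 and 0.0494 for SMAD1 (210993_s_at and 227798_at), and for SMAD6 (207069_s_at) from 0.0696 to 0.875.

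The replicate number as a block raised the count of lower probe sets over the whole array to 44, against 26 without it. It raised that of higher ones to 53, against 40. Deviations from the group means correlated by 0.16, 0.04 and 0.19 between arrays of the same number, and every array correlated best with its own number. Labels do not state that a number marks a shared culture, so the main comparison left the numbers out. Whether the arrays form pairs was not settled. The block gave SMAD6 its smallest adjusted p, 0.0696, and changed no SMAD call. With only probe sets of mean 7.5 or more, 24 were higher over the whole array, against 40. That filter leaves out all dimmer sets, among them the brightest set of SMAD6. Leaving out 1 array gave between 25 and 50 higher and between 7 and 26 lower probe sets over the whole array, the lowest of both without vehicle replicate 2. Dim sets limit what can be read: 8 of the 30 SMAD sets lay below the median of all probe sets, and none of those was called.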

Other observations

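Transcripts named after SMAD genes but listed under their own symbols were read by 1 probe set each. SMAD5-AS1, antisense to SMAD5, had log2 signals of 6.67, 6.70 and 6.69 in activin B, against 6.79, 6.83 and 6.81 in vehicle. Its groups did not overlap, but the log2 change did not pass (adjusted p = 0.956, limma). SMAD1-AS2 had 6.27, 6.25 and 6.22 in activin B, against 6.17, 6.13 and 6.19 in vehicle. There too the groups did not overlap and the change did not pass (adjusted p = 0.995, limma). SMAD3-DT, a divergent transcript beside SMAD3, had 6.24, 6.31 and 6.25 in activin B, against 6.36, 6.13 and 6.25 in vehicle, and its groups overlapped (adjusted p = 0.999). All 3 were dim, with signals near or below the array median of 6.69.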
